A study of Homo sapiens with 6 samples.

Results

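The cadherin superfamily genes were examined for binding of GSX2, a homeodomain protein that patterns the ventral telencephalon, where the lateral ganglionic eminence gives rise to striatal neurons. Members were chosen by symbol alone. They are the protein-coding genes of RefSeq named CDH or PCDH with a number, the PCDHA, PCDHB and PCDHG genes, FAT1 to FAT4, DCHS1 and DCHS2. The rule gave 95 genes, of which PCDH11Y was left out with chromosome Y, and 94 of 19970 protein-coding genes on chromosomes 1 to 22 and X were kept. They comprised 18 classical cadherins (type I and type II), 12 non-clustered protocadherins, 53 clustered protocadherins, 5 other CDH genes and 6 FAT and Dachsous genes.

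The material was 1 group of 3 replicates. H9 human embryonic stem cells carrying the transgene TRE3G 2xFLAGGSX2 WT, a tetracycline-responsive promoter in front of tagged wild-type GSX2, were differentiated to a state resembling the lateral ganglionic eminence. They were given LDN193189, SB431542 and XAV939, then LDN193189 and SB431542, then IWP2 and Activin A, and from day 10 also received doxycycline at 100 ng/mL for 12 hours. Chromatin was taken at day 10.5 and the tag was pulled down with M2 FLAG antibody. The precipitation targeted the induced tagged protein and not the cell's own GSX2. The values are the authors' peak lists of the 3 precipitations. The 3 input libraries, from the same kind of cells, have no values here, and no cells without the transgene or without doxycycline were analysed. Peaks that do not depend on the tagged protein therefore cannot be told apart. With no expression values the labelled cell state could not be checked against its markers, and since the lists hold no reads the sequencing depth is not known. The labels number the replicates without saying whether they are separate cultures, so the spread between them may be technical.

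Cadherins are calcium-dependent adhesion proteins with repeated extracellular domains. Classical cadherins bind the same or related cadherins on neighbouring cells and are tied to the actin cytoskeleton through catenins, and in the developing brain their combinations help cells of one territory to stay together. In the mouse telencephalon CDH6 marks the lateral ganglionic eminence and CDH4 the adjoining cortex. Non-clustered protocadherins, most of them of the delta type, are expressed in regional patterns in the brain. Clustered protocadherins are encoded side by side on chromosome 5 and give single neurons a combination of surface labels. FAT and Dachsous proteins are giant cadherins that act in planar cell polarity and growth control.

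GSX2 peaks overlapped the promoter windows of 4 members, and these are shown because they are the only places where a sequence table and a peak coincided. The windows are RefSeq sequences of GRCh38.p14 that run from 250 bases before to 50 bases after an annotated start, and 72 of the 94 members had at least 1. A gene can have several, since alternative starts have windows of their own, and the PCDH15 window shown is at such a start inside the gene, far from the 5′ end of its span. Each is written 5′ to 3′ on the gene's strand, with the bases inside the GSX2 region in capitals. They are CDH12, a type II cadherin (chr5:22853295-22853594, minus strand), CDH10, a type II cadherin (chr5:24644929-24645228, minus strand), PCDH7, a delta-1 protocadherin (chr4:30720119-30720418, plus strand), and PCDH15, a tip-link protein of hair cells (chr10:54801182-54801481, minus strand).
CDH12: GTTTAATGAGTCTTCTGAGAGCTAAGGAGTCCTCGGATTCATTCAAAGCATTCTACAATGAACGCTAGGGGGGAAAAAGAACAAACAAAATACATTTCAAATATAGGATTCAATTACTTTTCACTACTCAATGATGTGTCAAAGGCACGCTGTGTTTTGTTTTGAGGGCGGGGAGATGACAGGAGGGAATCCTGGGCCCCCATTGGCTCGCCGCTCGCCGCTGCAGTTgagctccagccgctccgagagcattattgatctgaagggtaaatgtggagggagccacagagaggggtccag
CDH10: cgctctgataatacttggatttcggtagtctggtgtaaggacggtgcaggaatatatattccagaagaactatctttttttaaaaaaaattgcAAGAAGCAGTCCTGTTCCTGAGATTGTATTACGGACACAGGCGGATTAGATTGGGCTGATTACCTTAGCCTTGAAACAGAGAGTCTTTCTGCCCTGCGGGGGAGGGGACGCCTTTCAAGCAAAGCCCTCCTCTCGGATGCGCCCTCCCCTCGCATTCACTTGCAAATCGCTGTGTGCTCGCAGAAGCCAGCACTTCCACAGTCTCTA
PCDH7: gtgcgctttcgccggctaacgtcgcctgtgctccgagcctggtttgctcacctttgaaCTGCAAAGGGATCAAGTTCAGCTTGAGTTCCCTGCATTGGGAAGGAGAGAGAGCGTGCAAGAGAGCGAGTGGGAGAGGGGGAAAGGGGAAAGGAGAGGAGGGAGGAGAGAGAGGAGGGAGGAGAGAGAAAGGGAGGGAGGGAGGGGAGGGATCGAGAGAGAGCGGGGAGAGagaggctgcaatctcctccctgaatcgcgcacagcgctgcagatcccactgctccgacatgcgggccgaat
PCDH15: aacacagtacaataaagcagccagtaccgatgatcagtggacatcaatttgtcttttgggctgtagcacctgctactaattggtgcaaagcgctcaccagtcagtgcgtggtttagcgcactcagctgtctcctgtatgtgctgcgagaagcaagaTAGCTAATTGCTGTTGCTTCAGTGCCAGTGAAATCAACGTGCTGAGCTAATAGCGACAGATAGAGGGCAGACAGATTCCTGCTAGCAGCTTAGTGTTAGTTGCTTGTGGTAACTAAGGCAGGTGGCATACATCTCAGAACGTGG

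None of these 4 peaks was found in all 3 replicates. The CDH12 region had a fold enrichment, the authors' ratio of a peak over the caller's background, of 5.38 in replicate 1 and 5.59 in replicate 2 and no peak in replicate 3. The CDH10 region was called in replicate 3 alone (6.11-fold), the PCDH7 region in replicate 2 alone (5.09-fold) and the PCDH15 region in replicate 3 alone (5.5-fold). PCDH15 was added to the named genes after its value was seen. Of the members with a window, 4 of 72 had at least 1 overlapped by a region of any replicate, against 4.81% of all protein-coding genes with a window. For regions found in all 3 replicates the count was 0 of 72, against 0.955%. The homeodomain core TAAT, searched on both strands as TAAT and ATTA, occurred 3 times in the CDH12 window, 2 of them within the region. It occurred 4 times in the CDH10 window, with 3 inside the region, 3 times in the PCDH15 window, with 2 inside, and 0 times in the PCDH7 window. The longer core TAATTA, its own reverse complement and containing both TAAT and ATTA, was in none of the 4 windows. TAAT was in 42.7% of the 22131 promoter windows of all protein-coding genes and in 64 of the 91 windows of members (70.3%), whether or not a peak overlapped them. TAATTA was in 3.40% of all windows. Among the windows of members it was in 10 (11%). These were 8 of the 52 windows of clustered protocadherins and 2 of the 12 windows of non-clustered ones, at PCDH1 and PCDH11X. It was in 0 of the 18 windows of classical genes, 0 of 5 of other CDH genes and 0 of 4 of FAT and Dachsous genes. None of these 10 windows was overlapped by a region.

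GSX2 regions were found next to many cadherin genes, in a share close to that of the genome over which these genes are the nearest. Each peak was assigned by its strongest summit to the nearest protein-coding gene span, and peaks of the 3 replicates that overlapped by at least 1 bp were merged into a region. The lists placed 162 of 9859 peaks (1.64%) of replicate 1, 121 of 7471 (1.62%) of replicate 2 and 148 of 9122 (1.62%) of replicate 3 at cadherin genes. The stretch over which a gene is nearest is called its territory, and the members' territories made up 1.67% of the 3030 Mb examined. That total includes 26 stretches of over 2.5 Mb outside spans, 155 Mb with 11 peaks and no member territory. Without them, a setting chosen after seeing the data, the members' peaks per Mb were 0.932, 0.919 and 0.920 of those of other genes in replicates 1, 2 and 3. The merged peaks formed 271 regions, of which 51 held a peak of all 3 replicates and are called shared. A further 58 had a peak in 2 replicates and 162 in 1. A region of any replicate was nearest to 48 of the 94 members, against 33.1% of all protein-coding genes.

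Of the 94 members, 37 were the nearest gene of at least 1 shared region, against 12.5% of all protein-coding genes. A single region inside the overlapping spans of the PCDHA genes accounts for 15 of the 37. Outside the clusters 22 of 41 members had a shared region. Credited to the shortest span only, the count was 23 of 94, against 12.3% of all genes. Members were also long: their median territory was 158 kb, against 56.5 kb over all genes, and 1307 kb for classical and 1564 kb for non-clustered genes. Among the 431 genes with a territory of at least 1 Mb, a limit chosen after seeing the data, 65.2% had a shared region, and 18 of the 22 members of that length did. In the same set 21.3% of genes had 3 or more shared regions and 9 of the 22 members did, against 1.17% of genes of any length. The 431 genes include some beside the 26 stretches of over 2.5 Mb outside spans, such as H3-7, with 11248 kb and 0 regions. Those stretches held no member territory, and the 65.2% and 21.3% without such genes are not given here.

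**Figure D1:**
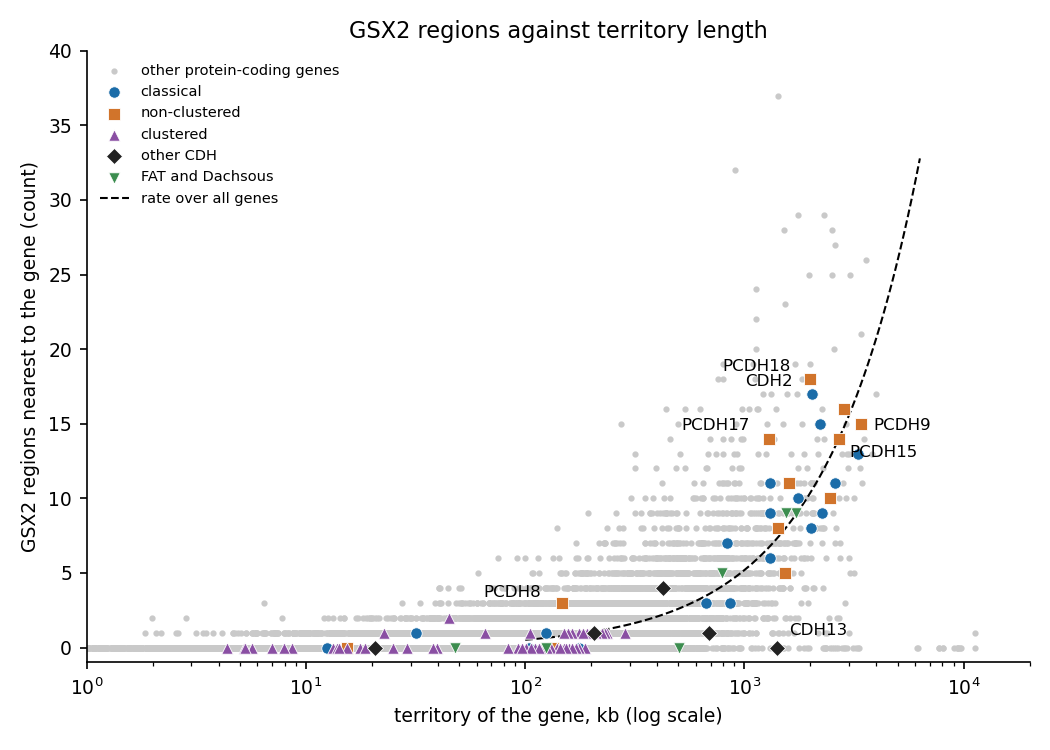
Each point is a protein-coding gene, plotted by its territory in kb on a log axis and the number of GSX2 regions of any replicate nearest to it; coloured symbols are the cadherin classes and the dashed line is the rate over all genes, 5.20 regions per Mb. Members with long territories lie on both sides of the line, and CDH13, with a territory of 1406 kb, has 0 regions; the PCDHA genes share 1 region and so each stand at 1.

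Per Mb of territory, the density of all called peaks at cadherin genes was close to that at other genes. It was 3.20, 2.39 and 2.92 peaks per Mb for the members, taking replicates 1, 2 and 3 in turn, with mean 2.84 ± 0.41 (SD, n = 3), and 3.25, 2.47 and 3.01 for all other genes. Replicate 2 was lowest in both, and the members were lower in 3 of 3 replicates by a small margin. The ratio was 0.974 ± 0.008 (exact paired permutation test over replicates, two-sided p = 0.25, the smallest that 3 pairs allow, and 0.643 adjusted over 9 comparisons). With peaks of −log10 q of at least 10 only, the ratio was 0.816. Shared regions numbered 1.01 per Mb at members and 1.17 per Mb over all genes, a difference that was not tested. The direction of the peak density ratio turned with the definition of a territory. It was 1.26 when noncoding genes and pseudogenes also competed for the nearest span, and 1.15 within 100 kb of the span. Among genes with territories of at least 1 Mb, an addition after seeing the data, it was 1.44, 1.36 and 1.39 in the 3 replicates. That last comparison set 44.0 Mb of members against 769 Mb of other genes, and leaving out 26 stretches of over 2.5 Mb outside spans, which held 11 peaks in all, brought it to 1.16, 1.09 and 1.11.

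The peak densities of the 3 main classes overlapped in range. Classical cadherin genes had 3.14, 2.49 and 2.88 peaks per Mb in replicates 1, 2 and 3, non-clustered protocadherin genes 3.53, 2.30 and 3.22, and clustered protocadherin genes 5.57, 2.79 and 2.79. The clustered values rest on 4, 2 and 2 peaks in 0.718 Mb, against 72, 57 and 66 peaks in 22.9 Mb of classical and 69, 45 and 63 in 19.5 Mb of non-clustered territory. The clustered values pool PCDHA genes, at 3.50 peaks per Mb in each replicate, PCDHB genes, at 12.3, 4.10 and 4.10, and PCDHG genes, at 0. The ratio of classical to clustered density was 0.564, 0.893 and 1.03, and that of non-clustered to clustered 0.634, 0.827 and 1.16. Both ratios lay on either side of 1 (exact paired permutation test, two-sided p = 0.50 for each, 0.643 adjusted over 9 comparisons). Classical over non-clustered was 0.890, 1.08 and 0.894 (exact paired permutation test, p = 0.50). With 3 replicates no such test can give a p below 0.25, so these tests could not detect a difference of any size.

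**Figure D2:**
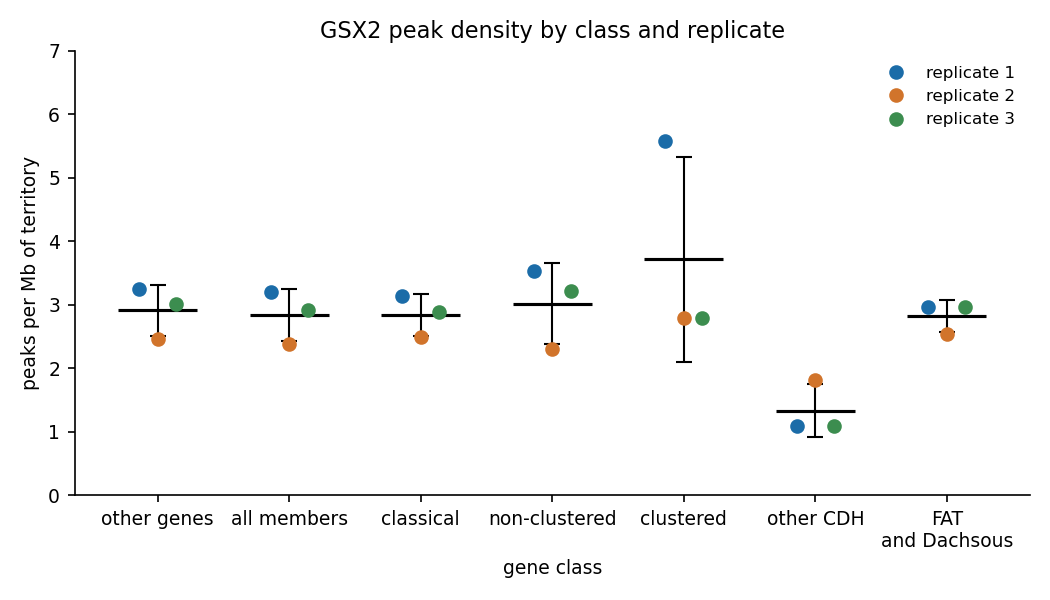
Peaks per Mb of territory in each replicate (points), with the mean (line) and SD over the 3 replicates (bars), for other protein-coding genes, all members and the 5 classes. The classes overlap the other genes except the 5 other CDH genes, whose 1.09, 1.82 and 1.09 peaks per Mb lie below them in all 3 replicates.

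The 5 other CDH genes had fewer peaks, in 2.75 Mb of territory, with 3, 5 and 3 peaks in replicates 1, 2 and 3. Their ratio to other genes was 0.335, 0.737 and 0.362 (exact paired permutation test, p = 0.25, the smallest possible, 0.643 adjusted over 9 comparisons). CDH13, T-cadherin, a lipid-anchored cadherin without a cytoplasmic tail, holds 1406 kb of that territory and had 0 peaks in all 3 lists. Of the 232 genes with a territory at least as long as that of CDH13, 17.2% had no region either. That set includes genes beside stretches of over 2.5 Mb outside spans, such as H3-7, whereas the span of CDH13 is 1174 kb. CDH13 was singled out after its value was seen. The FAT and Dachsous genes had 2.96, 2.54 and 2.96 peaks per Mb, within the range of the other genes.

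At cadherin genes a lower share of regions recurred in all 3 replicates than over all genes, a difference that was not tested. Of the 271 regions 18.8% were shared (95% Wilson interval 14.6 to 23.9%), against 22.5% of all 15743 regions (21.8 to 23.1%). The share was 17.7% for classical genes (22 of 124), 17.5% for non-clustered genes (20 of 114), 33.3% for the other CDH genes (2 of 6) and 26.1% for FAT and Dachsous genes (6 of 23). For clustered genes it was 1 of 4 regions. These intervals cover counting error only, and regions are not replicates. The median fold enrichment of members' peaks was 6.74, 7.66 and 6.81 in replicates 1, 2 and 3. Over all peaks it was 7.15, 7.73 and 7.48. The mean fold enrichment of the 51 shared regions ran from 5.19 to 26.1 with a median of 9.19, beside a median of 9.49 over all 3537 shared regions. Of these regions 4 of 51 belonged to the top 10% of all shared regions, and 23 of 51 lay above the overall median. The median coefficient of variation between replicates was 18.8%. The highest of the 3 values fell in replicate 1 for 14 regions, in replicate 2 for 17 and in replicate 3 for 20.

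Most shared regions lay outside the genes and far from them. Of the 51, 16 were inside a member's span (31.4%), against 51.5% of all shared regions, and the spans made up 25.7% of the members' territory, against 41.6% over all genes. Exons and introns were not separated, since the gene table gives spans only. Of the rest, 2 lay within 10 kb, 7 at 10 to 100 kb, 10 at 100 to 500 kb and 16 beyond 500 kb. Beyond 500 kb were 31.4% of members' shared regions and 5.40% of all shared regions. The median distance of the 35 outside regions was 409 kb, against 69.3 kb over all 1714 outside shared regions. A long distance needs a long territory. Median territories were 1307 kb for classical and 1564 kb for non-clustered genes, against 56.5 kb over all genes. Whether the distances differ from those at other genes with long territories was not tested. Of the 35, 7 were upstream and 16 downstream of their gene, and for 12 the strand was not in the table used. At such distances the nearest gene is a position, and no value here ties a region to the gene's expression. With noncoding genes and pseudogenes also allowed as the nearest, 21 of the 51 shared regions stayed with a cadherin gene. The same count over all shared regions is not given here, so this loss cannot be called particular to cadherin genes.

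**Figure D3:**
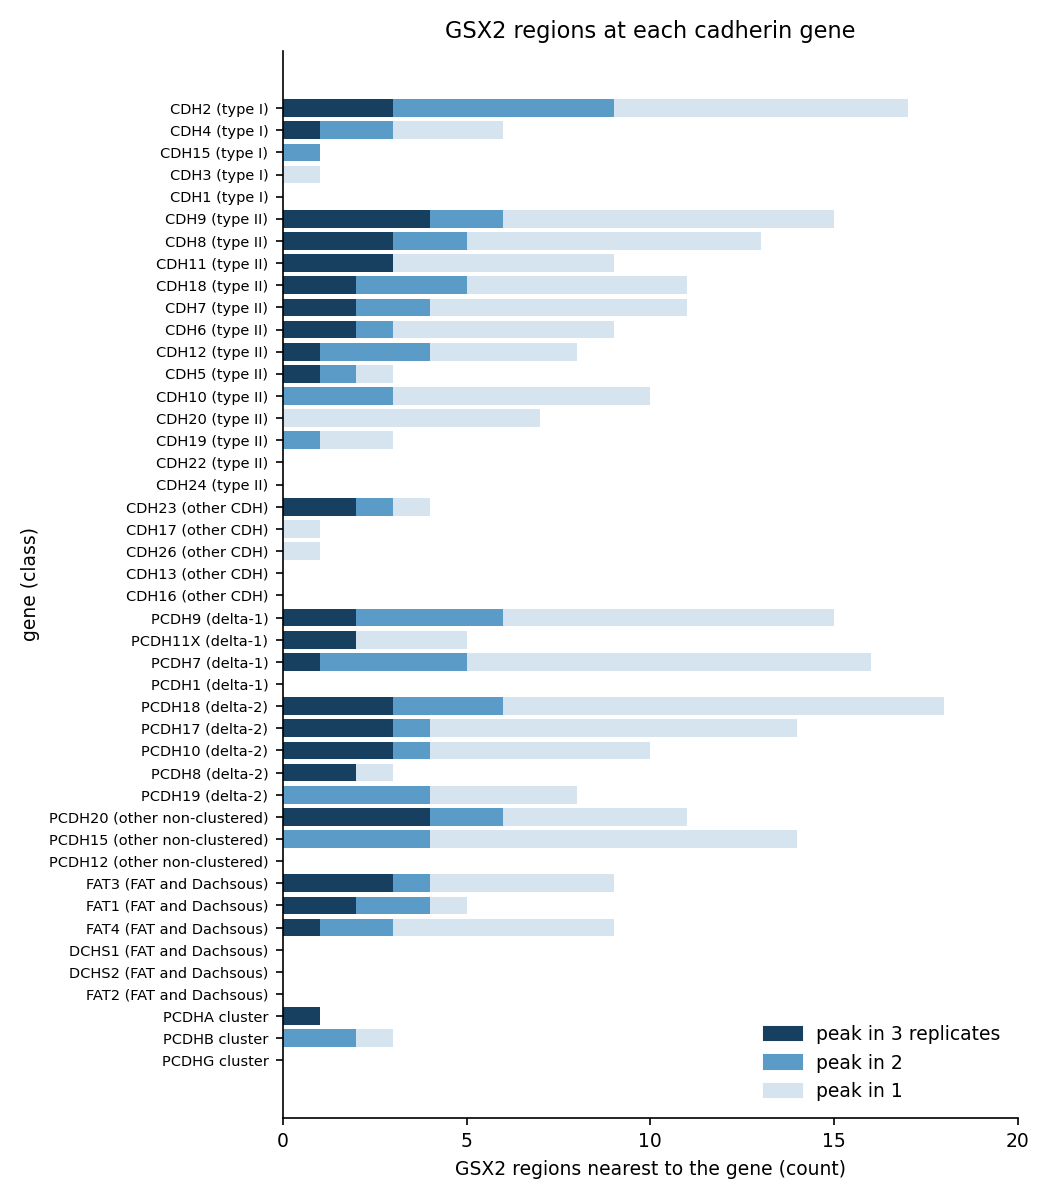
Number of GSX2 regions nearest to each member outside the clusters and to the 3 clusters as a whole, split by the number of replicates with a peak. PCDH18 has the most regions (18, of which 3 are shared), and CDH9 and PCDH20 the most shared ones (4 each).

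Among classical type I genes, whose products hold epithelia and neuroepithelia together, CDH2 carried 3 of the 4 shared regions. CDH2, N-cadherin of the neuroepithelium, had 11, 10 and 8 peaks in replicates 1, 2 and 3, forming 17 regions in 2024 kb, of which 3 were shared, 6 were seen in 2 replicates and 8 in 1. Its strongest shared region lay 345 kb upstream (chromosome 18, 28522186 to 28522577) with fold enrichments of 7.85, 9.41 and 10.2. The other 2 lay downstream, at 107 kb (7.26, 8.06 and 8.09) and at 271 kb (5.83, 7.59 and 6.98). All 3 were below the median of all shared regions. CDH4, R-cadherin, had 4, 2 and 4 peaks and 1 shared region, inside the gene (chromosome 20, 61436390 to 61436767), with fold enrichments of 5.07, 8.22 and 10.1. In that region replicate 1 was the lowest and replicate 3 the highest (SD 2.54). CDH1, E-cadherin of epithelial and pluripotent cells, had 0 peaks in a territory of 104 kb. CDH3 had 1 region, seen in 1 replicate, and CDH15, M-cadherin of muscle, had 1, seen in 2. Type I genes as a group had 4.45, 3.34 and 3.89 peaks per Mb and 4 shared regions in 3.60 Mb.

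Among type II genes, which include many cadherins of restricted neuronal groups, 8 of 13 had a shared region, 18 in all. The share was 12.5% over all genes and 65.2% over genes with a territory of at least 1 Mb, and the median territory of type II genes was 1311 kb. Of the type II genes with at least 1 Mb, all but CDH10 had a shared region. The strongest region of all members was nearest to CDH11, a cadherin of mesenchyme and brain (chromosome 16, 64154318 to 64154884). Replicates 1, 2 and 3 gave fold enrichments of 31.8, 24.5 and 22.2, averaging 26.1 ± 5.0 (SD, n = 3), which ranked number 53 of the 3537 shared regions. It lay 789 kb from the gene, with a pseudogene 106 kb away as the nearest entry of any kind. CDH11 had 2 more shared regions, 1111 kb away on the same side (6.13, 13.3 and 13.5) and 475 kb away on the other (12.0, 10.6 and 9.26). Replicate 1 was the highest at the strongest region and the lowest at the second. Thus CDH11 had 3 shared regions and none inside its span.

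CDH9, a cadherin with a role in synapse specificity in the hippocampus, had 4 shared regions, as many as any member. The strongest, 30.5 kb upstream (chromosome 5, 27068902 to 27069317), had fold enrichments of 19.7, 20.3 and 26.0, a mean of 22 ± 3.4 (SD, n = 3). No annotated gene of any kind lay closer to it than CDH9. The other 3 were downstream, at 1024 kb (11.9, 14.1 and 9.85), 205 kb (9.36, 9.93 and 9.94) and 896 kb (6.58, 6.29 and 8.27). The region upstream of CDH9 exceeded these 3 in each replicate. CDH8, expressed in subsets of forebrain neurons, had 8, 5 and 8 peaks and 3 shared regions. They lay 741 kb downstream (13.7, 11.9 and 11.3), inside the gene (9.93, 11.2 and 10.1) and 1345 kb downstream (9.54, 15.8 and 5.80). The last of these spread widely between replicates (SD 5.08) and the region inside the gene little (SD 0.66).

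CDH6, the cadherin of the lateral ganglionic eminence, had 5, 5 and 4 peaks and 2 shared regions, both weak. One lay inside the gene, 912 bp from an end of its span (chromosome 5, 31328044 to 31328408), with fold enrichments of 5.07, 8.39 and 4.72. The other lay 645 kb away with 5.98, 6.39 and 4.94. They ranked number 3360 and number 3439 of 3537. CDH7 and CDH18 had 2 shared regions each, and CDH12 and CDH5 (the cadherin of endothelium) had 1 each. CDH10 had 4, 3 and 6 peaks forming 10 regions and CDH20 had 3, 1 and 3 forming 7, and in neither gene was any of them shared. CDH19 had 3 regions and CDH22 and CDH24 had 0.

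**Figure D4:**
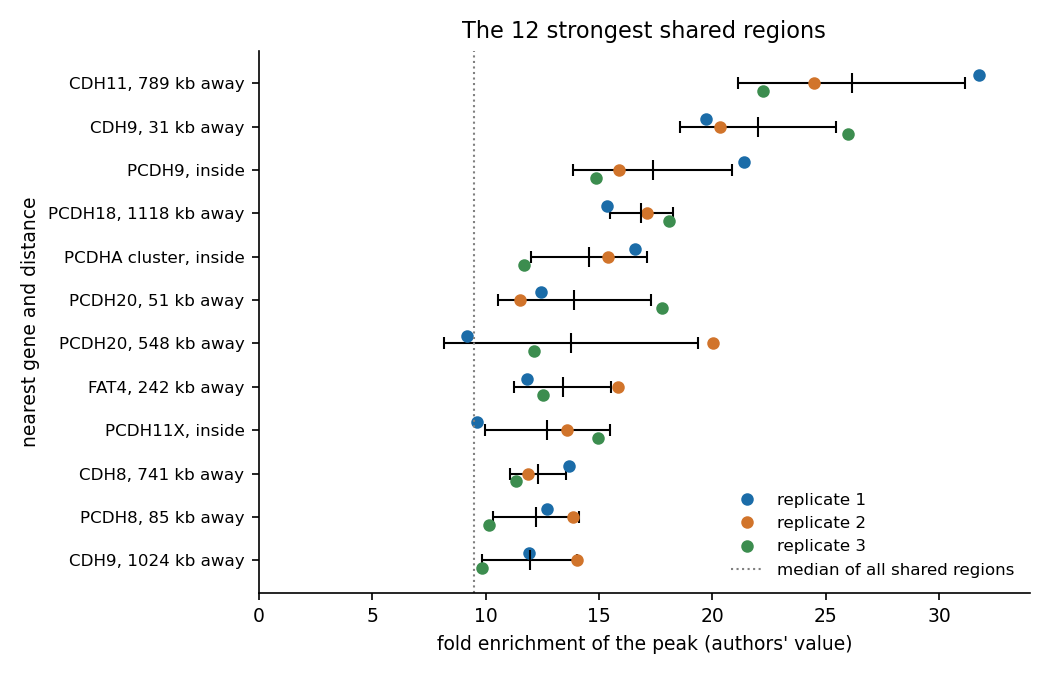
Fold enrichment, the authors' value, of the 12 shared regions with the highest means: points are replicates, the bar is the mean and its SD (n = 3), and the dotted line is the median of all shared regions, 9.49. The regions nearest to CDH11 and CDH9 have the highest means, 26.1 and 22, and each region overlaps the next in the order within their SDs.

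Among non-clustered protocadherins, 8 of 12 had a shared region (66.7%), 20 in all. The share was 12.5% over all genes and 65.2% over genes with a territory of at least 1 Mb. The median territory of the 12 genes was 1564 kb, and 9 of them had at least 1 Mb. Of those 9, all but PCDH15 and PCDH19 had a shared region. The 4 delta-1 genes had 5 shared regions in 7.93 Mb, at PCDH7, PCDH9 and PCDH11X. The strongest lay inside PCDH9, an adhesion gene of central neurons (chromosome 13, 66745291 to 66745696), with fold enrichments of 21.4, 15.9 and 14.8, a mean of 17.4 ± 3.5 (SD, n = 3). PCDH9 had 1 more, 65.2 kb downstream (10.4, 9.08 and 11). PCDH11X, the X-chromosomal member, had a region inside the gene (9.62, 13.6 and 15.0) and one 52.9 kb upstream (11, 16.6 and 8.09). PCDH7 had 16 regions, of which 1 was shared, 642 kb downstream (10.5, 6.65 and 9.53). PCDH1 had 0.

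The delta-2 genes had the highest number of shared regions among the protocadherins, 11 in 7.31 Mb, at 4 of 5 genes. A shared region was found at 12.5% of all genes and at 65.2% of those with a territory of at least 1 Mb. The median territory of the delta-2 genes was 1427 kb, and of those with at least 1 Mb all but PCDH19 had a shared region. Their density was 5.20, 2.87 and 3.42 peaks per Mb, against 2.52, 1.64 and 2.65 for delta-1 genes, and the delta-2 value was higher in 3 of 3 replicates, a difference that was not tested. PCDH18 had 14, 6 and 7 peaks around a span of 13.6 kb. Its strongest shared region, 1118 kb downstream (chromosome 4, 136400863 to 136401321), had fold enrichments of 15.4, 17.1 and 18.1, a mean of 16.9 ± 1.4 (SD, n = 3). The nearest entry of any kind was a pseudogene 44.8 kb from it. The other 2 were also downstream, at 654 kb (5.63, 8.11 and 9.89) and 1432 kb (8.87, 7.13 and 5.47). A region in 2 replicates lay 530 bp before the gene's start (4.25 in replicate 1 and 4.94 in replicate 3).

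PCDH8, whose activity-regulated product moves N-cadherin away from synapses, had the only shared region within 1 kb of a start among members of known strand. It lay 858 bp upstream of the 5′ end (chromosome 13, 52849177 to 52849823), outside the promoter window, with fold enrichments of 9.0, 10.1 and 14, a mean of 11 ± 2.6 (SD, n = 3). PCDH8 had 1 more shared region, 84.5 kb upstream (12.7, 13.8 and 10.1). Both fell in a territory of 147 kb, the shortest of any member outside the clusters with a shared region. Within 1 kb of a gene end, a shared region was found at 2 of 94 members, PCDH8 and CDH6, against 1.55% of all genes. A region of any replicate was found there at 6 of 94, against 7.83%, and the other 4 were CDH10, CDH12, PCDH7 and PCDH18.

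PCDH10, needed in mice for the growth of striatal axons, had 7, 4 and 6 peaks and 3 shared regions. One was inside the gene (4.66, 6.78 and 5.51), and the others lay 234 kb away (10.6, 8.11 and 9.80) and 1145 kb away on the opposite side (8.64, 11.9 and 7.12). The region inside PCDH10 was the lowest of the 3 in each replicate. PCDH17, a synaptic protocadherin of corticobasal ganglia circuits, had 10, 5 and 6 peaks and 10.8 regions per Mb, the most among the 22 members with a territory of at least 1 Mb. Its shared regions were 5.10 kb upstream (4.67, 6.33 and 5.67), 352 kb downstream (5.96, 7.78 and 4.79) and 502 kb downstream (10.6, 8.04 and 6.14). PCDH19, an X-linked epilepsy gene, had 8 regions and none shared. The strongest of them, inside the gene, reached 11.4 in replicate 1 and 11.4 in replicate 2 and was not called in replicate 3.

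PCDH20 had 4 shared regions around a span of 6.16 kb, none inside it. The 2 strongest lay 50.7 kb from the gene (chromosome 13, 61358660 to 61359166), with fold enrichments of 12.4, 11.5 and 17.8, and 548 kb away on the other side (9.18, 20.02 and 12.1). The second varied more than 2-fold between replicates (SD 5.60). The other 2 lay 409 kb away (9.79, 8.24 and 7.35) and 1074 kb away (11.6, 12.6 and 8.63). PCDH15 had 4, 6 and 8 peaks in 2705 kb, which formed 14 regions with no shared one among them. PCDH12 had 0.

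**Figure D5:**
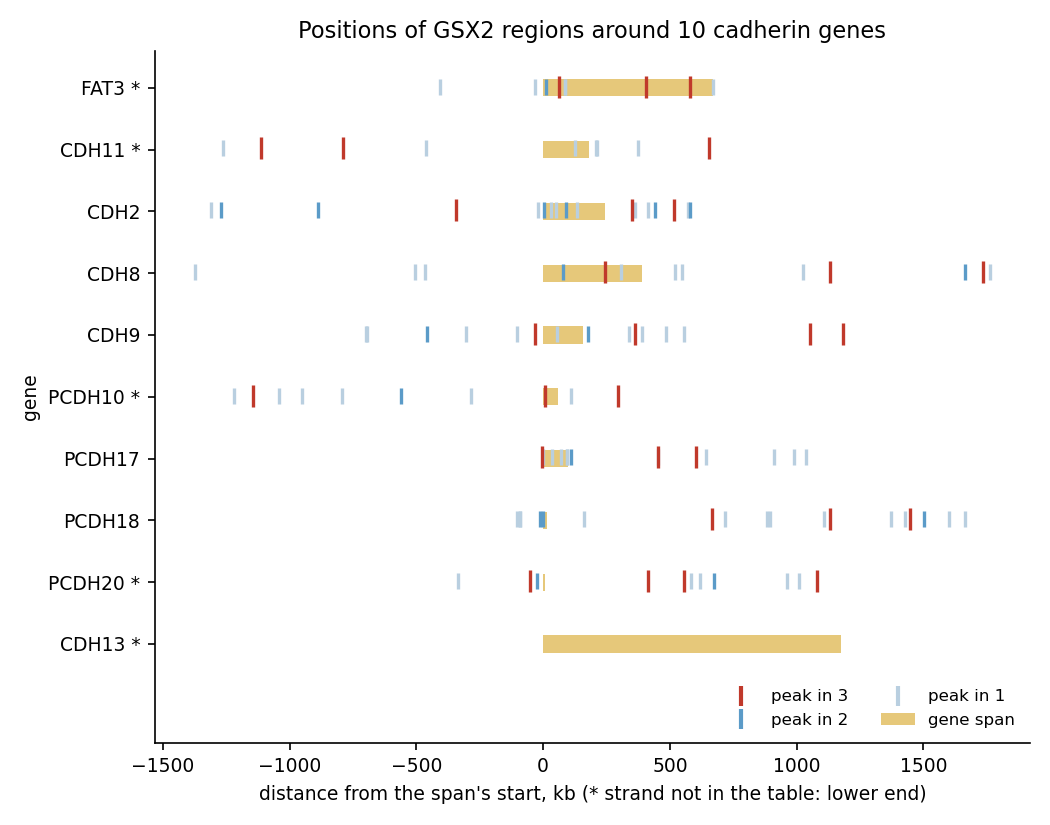
Regions around the 9 members with 3 or more shared regions and around CDH13, placed by distance in kb from the start of the gene span (box; the lower end where the strand was not in the table); marks are coloured by the number of replicates with a peak. FAT3 holds its 3 shared regions inside the span, those of CDH9, CDH11 and PCDH20 lie outside, and CDH13 has none.

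The clustered protocadherins had 1 shared region among their 53 genes. In the PCDHA and PCDHG clusters each gene contributes a variable first exon with a promoter of its own, joined to exons that all genes of the cluster share, while PCDHB genes lack such common exons. The shared region lay inside the annotated constant region of the PCDHA cluster (chromosome 5, 140986039 to 140986689), within the spans of all 15 PCDHA genes, so it cannot be credited to one of them. Its fold enrichment was 16.6, 15.4 and 11.7, a mean of 14.6 ± 2.6 (SD, n = 3), the fifth highest of the members' shared regions. No other region of any replicate was nearest to a PCDHA gene. The PCDHB cluster, 16 genes over 198 kb, had 3 regions. One lay inside PCDHB2 (6.38 in replicate 1 and 6.74 in replicate 3), one 10.7 kb upstream of PCDHB1 (4.12 in replicate 1 and 5.19 in replicate 2), and the third, beside that one, was called in replicate 1 alone (5.34). The PCDHG cluster, 22 genes over 182 kb, had 0 regions in all 3 lists.

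Of the FAT and Dachsous genes, FAT1, FAT3 and FAT4 had shared regions and FAT2, DCHS1 and DCHS2 had 0 regions. That is 3 of 6 genes, with a median territory of 646 kb, against 12.5% of all genes. FAT4, the receptor that pairs with DCHS1, had 1 of its 9 regions shared, 242 kb away (chromosome 4, 125735024 to 125735479), with fold enrichments of 11.8, 15.8 and 12.5, a mean of 13.4 ± 2.15 (SD, n = 3). FAT3 had 3, all inside its span of 672 kb (9.18, 9.32 and 13.2, then 7.66, 7.59 and 11.5, then 6.24, 6.44 and 8.09). Replicate 3 was the highest in each. FAT1 had 2, one inside the gene (4.67, 7.75 and 5.67) and one 398 kb upstream (7.81, 8.22 and 8.54). A stronger region inside FAT1 reached 15.1 in replicate 1 and 10.6 in replicate 3 and was not called in replicate 2. Among the other CDH genes, CDH23, the partner of PCDH15 in the tip link, had 2 shared regions, both inside the gene (10.7, 12.5 and 7.37, and 10.7, 6.20 and 10.7).

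The catenins and their relatives, which tie classical cadherins to the cytoskeleton, had 4 of 9 genes with a shared region, against 12.5% of all genes. The median territory of the 9 genes was 282 kb. Of the 4, CTNNA2, CTNNA3 and CTNND2 had territories of 3364, 3011 and 1931 kb, and CTNNB1 had 374 kb. Among all genes with a territory of at least 1 Mb, 65.2% had a shared region. The strongest shared region of the catenins was inside CTNNA2, the neuronal alpha-catenin, which had 4 (17.3, 21.8 and 19.3 at the strongest, a mean of 19.5 ± 2.3). CTNND2, a neuronal catenin of the p120 type, had 2, CTNNA3 had 1 and CTNNB1, beta-catenin, had 1 (6.87, 5.81 and 5.47). Among 19 further genes of the superfamily, which are flamingo, desmosomal, calsyntenin and cadherin-related genes and RET, 2 had a shared region. They were DSC3, a desmocollin, with 2 regions, and CDHR1, a photoreceptor cadherin, with 1 inside the gene (8.51, 11.3 and 11.8).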

How the data were processed

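FLAG-tagged GSX2 was precipitated in 3 replicates, with 3 input libraries that have no values here. MACS3, Bowtie2, Trim Galore, SAMtools and deepTools are named, with hg38 as the build, per the submitters' processing notes. Versions, settings and whether the input served as control are not stated there. The authors deposited 1 peak list per replicate, with fold enrichment as a linear ratio and with −log10 p-values and −log10 q-values. The smallest −log10 q was 3.01, 3.00 and 3.00. Lines of 1 interval were joined, keeping the summit of highest fold enrichment, and 77, 64 and 82 intervals on other contigs were left out.

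Gene spans and promoter windows came from RefSeq tables of GRCh38.p14, the build that hg38 names. A summit inside several spans was credited to each, and no summit lay in a member and another gene. Territories were split midway between spans, ran to the last annotated gene of a chromosome and include unsequenced stretches. In all 1131 pairs of promoter windows of opposite strands whose overlap was long enough to be checked, the sequences were reverse complements. Merging and assignment were tested on simulated data, where 200 of 200 planted sites were recovered as shared. Python 3.11.15, pandas 2.3.3 and numpy 2.4.6 were used. The text names the 12 strongest shared regions, the strongest of each class, members with 3 or more shared regions or a region within 1 kb of an end, and a set of forebrain cadherins given whatever their values. Members, classes and lists were chosen with earlier results of these data known. Densities were compared by exact paired permutation tests over replicates, and other values are described without a test.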

Additional observations from a re-analysis of the deposited data

How the results depend on the processing

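No paired analysis was possible because, between precipitation and input, which share replicate numbers, the input libraries have no values here. The density ratios compare gene sets within each replicate and are paired by replicate in that sense only. The ratio of peak density at members to that at other genes, 0.974, was 0.816 with peaks of −log10 q of at least 10 and 0.969 to 0.977 without 1 replicate. It reversed to 1.15 within 100 kb of a span, to 1.26 when all annotated genes competed and, among territories of at least 1 Mb, to 1.40. Without stretches of over 2.5 Mb it was 0.924. The last 2 settings were chosen after seeing the data.

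With −log10 q of at least 10, regions fell from 271 to 94 over all members, from 124 to 35 for classical, from 114 to 43 for non-clustered and from 4 to 1 for clustered genes. Shared regions fell from 51 to 25, from 22 to 10 and from 20 to 11, and classical genes with one from 10 to 6. Within 100 kb, regions were 131 in all, 49 classical and 59 non-clustered, and shared regions 25, 9 and 9. When all annotated genes competed, regions were 107, 38, 49 and 2 clustered, and shared regions 21, 7 and 7. A shared region defined by at least 2 replicates gave 109, 49, 43 and 3 clustered. Crediting the shortest span alone left 23 members, and 1 of the clustered genes in place of 15, with a shared region. An overlap of at least 0.5 of the shorter interval changed none of these counts. Merging before assignment changed neither the shared regions nor the genes with one, and regions of any replicate were not counted that way.

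Without 1 replicate a shared region needs the other 2 only. Members with one were then 40 to 41, classical 11 to 12, non-clustered 9 to 10 and clustered 15 to 16. Shared regions were 67 to 73 in all, 28 to 33 classical, 25 to 30 non-clustered and 1 to 2 clustered, the clustered count being 2 without replicate 2 and without replicate 3. Regions were 202 to 237, 90 to 110, 83 to 102 and 3 to 4. Of the 12 strongest regions only the CDH8 region has more than 1 summit, and its mean over summits was 11.4 in place of 12.3. Depth is unknown, and a missing peak may be one below the threshold.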
